A study of Mus musculus with 11 samples.

Results

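Of the 20303 genes counted in single wells of sorted mouse testis cells, 5 are described here: the noncoding RNAs Kcnq1ot1, Malat1, Neat1 and Meg3, and Vmn2r55. They were taken by name for their share of the RNA in wells that gave little RNA, so the values that chose them are their shares in wells of 1000 to 5000 unique molecular identifiers (UMIs, random tags that mark the original molecules) and in wells with more than 5000. The data go against the grouping in part. Vmn2r55 is annotated as protein-coding. Neat1, with 3, 5 and 9 UMIs in low wells, took a lower share of UMIs there, not a higher one, in all 3 mice. The 5 genes are therefore described by name. Over all wells Kcnq1ot1 had 127560 UMIs, Vmn2r55 26475, Malat1 19789, Neat1 1485 and Meg3 192.

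The cells were live, GFP-positive cells of the adult testis of 3 Dazl-GFP reporter mice, none of them treated, sorted singly into 384-well plates and measured by SORT-Seq, a plate-based form of CEL-seq that primes polyadenylated RNA with oligo-dT. All 3 mice carried the reporter, and Dazl is a gene of germ cells, so the sort was aimed at germ cells. Mouse 1 gave 768 wells by CEL-Seq1, mouse 2 gave 384 wells and mouse 3 gave 768 wells by CEL-Seq2. The wells of mouse 3 were on 2 plates, one sorted by a gate alone and the other, like those of mice 1 and 2, with the fluorescence of each cell recorded. The protocol and mouse 1 cannot be told apart. The replicate is the mouse (n = 3), and the wells of a mouse are not replicates.

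Kcnq1ot1 is an unspliced RNA read from within the Kcnq1 gene on the opposite strand. It is known for silencing neighbouring imprinted genes on the paternal chromosome. Malat1 and Neat1 are neighbouring nuclear RNAs: Malat1 lies in nuclear speckles, where splicing factors gather, and Neat1 is the scaffold of paraspeckles. Meg3 is the maternally expressed RNA of the imprinted Dlk1-Dio3 region. Vmn2r55 belongs to the vomeronasal type 2 receptors, a large family of receptor genes known from pheromone-sensing neurons. Nuclear RNAs are retained in the nucleus, whereas most messenger RNAs leave it for the cytoplasm.

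In the mouse build GRCm38 with GENCODE M21, Kcnq1ot1 lies at chr7:143203458-143296549 on the minus strand as 1 exon of 93092 bases, overlapping Kcnq1. Vmn2r55 lies at chr7:12651706-12685003 on the minus strand, and its longest transcript has 6 exons and 2448 bases. Malat1 lies at chr19:5795690-5802672 and Neat1 at chr19:5824708-5845478, both on the minus strand and 22035 bases apart. Meg3 lies at chr12:109541001-109571726 on the plus strand, with a longest transcript of 14548 bases. Because the libraries were primed with oligo-dT, the longest run of A in each longest transcript is shown, with the 15 bases before it and the 15 bases from its start. Letters run 5′ to 3′ on the strand of the transcript, and the capitals mark the run. The windows are at chr7:143226971-143227000 (Kcnq1ot1), chr7:12665497-12665526 (Vmn2r55), chr19:5795985-5796014 (Malat1), chr19:5835926-5835955 (Neat1) and chr12:109545802-109545831 (Meg3). A630089N07Rik, a gene of chromosome 16 that returns below for its likeness to Vmn2r55, is shown at chr16:98062876-98062905 for comparison.
Kcnq1ot1: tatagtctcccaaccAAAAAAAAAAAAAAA
Meg3: tgtccagacaagaccAAAAAAAAAAAAAAA
Malat1: cctttccctagctttAAAAAAAAAAAAgca
Neat1: tgcagcctggactatAAAAAAAccttcatg
Vmn2r55: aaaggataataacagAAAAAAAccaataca
A630089N07Rik: caaggataataacagAAAAAAAccaataca

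The run of Kcnq1ot1 is 41 bases long, at bases 69565 to 69605 of its 93092, and the transcript holds 8 runs of at least 12 A. Only 0.0253% of the 55341 annotated genes have as long a run in their longest transcript. The runs of Meg3 and Malat1 are 16 and 12 bases, lengths reached by 2.18% and 5.61% of genes. Those of Neat1 and Vmn2r55 are 7 bases, reached by 27.7%. The tables give no read positions, so where the reads of a gene began is unknown and these runs are a description of the transcripts. The longest stretch that the transcripts of Vmn2r55 and A630089N07Rik have in common is 30 bases. Vmn2r55 also shares 67.6% of its 50-base stretches with other genes, chiefly Vmn2r54 and Vmn2r56, so its counts are uncertain. For Kcnq1ot1, Malat1, Neat1 and Meg3 that share is 0.578%, 1.64%, 1.25% and 4.29%. The sources used here do not say whether strand was used in counting, and reads of Kcnq1ot1 and of Kcnq1 introns can then not be told apart. The row of Kcnq1 itself had 27 UMIs.

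Of the 1920 wells, 98, 84 and 152 were low wells (1000 to 5000 UMIs) in mice 1, 2 and 3, and 447, 237 and 430 were deeper wells (over 5000). The low wells had median totals of 2239.5 to 2850.5 UMIs and the deeper wells of 15169 to 24202. Mitochondrial RNA was 18.1% ± 4.1 of UMIs in low wells and 7.99% ± 3.13 in deeper wells (SD, n = 3). Of the 19 mitochondrial genes compared, 14 were at least 2-fold higher in low wells in every mouse, beside 1.9% of the 11262 other genes compared. Spike-in RNA (ERCC, added in equal amount to each well) was 5.95% to 13.96% of UMIs in low wells and 0.549% to 1.81% in deeper wells. The low wells also gave fewer ERCC UMIs, with medians of 161, 373 and 565.5 per well against 201, 439 and 854 in deeper wells. The part of capture in the low depth was not tested. Both classes held germ cell RNA: Dazl was at 14.5 to 23.9 UMIs per 10,000 in low wells and 10.5 to 14.8 in deeper wells. Ddx4, another germ cell gene, went the other way in every mouse, with 3.12 to 5.26 in low wells and 6.45 to 8.62 in deeper wells. The 11 markers of leptotene and zygotene cells summed to 47.6 to 70.1 per 10,000 in low wells and 38.5 to 47.0 in deeper wells, and the 13 pachytene markers to 22.2 to 47.4 and 47.8 to 81.0. The 10 Sertoli cell markers, the most abundant of the somatic lists, summed to 0.850 to 1.09 and 0.535 to 0.623, with Amh and Fshr at 0 in the low wells of all 3 mice. The part of mitochondrial RNA and of stage in the differences below was not tested.

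Kcnq1ot1 took a higher share of the UMIs in low wells. In mice 1, 2 and 3 it had 46.4, 218 and 412 UMIs per 10,000 in low wells and 20.8, 40.6 and 25.8 in deeper wells. The low wells were above the deeper wells in every mouse, on the contrast that chose the gene. The ratios were 2.24, 5.38 and 16.0, with a mean log2 difference of 2.53 ± 1.42 (SD, n = 3). These values rest on 1152, 5392 and 15913 UMIs in low wells. In mouse 1, where only 256 different UMIs were possible per gene and well, a deeper well reached 249 UMIs of Kcnq1ot1. With the table of transcripts, which corrects for UMIs used more than once, the log2 difference of mouse 1 was 0.74, against 1.16 with UMIs.

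Vmn2r55 followed Kcnq1ot1. It had 8.18, 57.9 and 105 UMIs per 10,000 in the low wells of mice 1, 2 and 3 and 5.07, 6.99 and 4.56 in the deeper wells. The ratios were 1.61, 8.28 and 23.0, and the mean log2 difference was 2.75 ± 1.93. Mouse 1 was again the mouse with the smallest ratio, and there the median low well was below the median deeper well, by 0.24 on the log2 scale, although the sum over wells was above it. For each 100 UMIs of Kcnq1ot1 there were 17.6, 26.5 and 25.5 UMIs of Vmn2r55 in low wells and 24.4, 17.2 and 17.6 in deeper wells, a ratio of counts that is not corrected for length.

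The speckle RNA Malat1 differed much less. It had 11.97, 6.24 and 4.35 UMIs per 10,000 in low wells and 7.79, 5.06 and 2.003 in deeper wells, ratios of 1.54, 1.23 and 2.17. Each mouse was higher in low wells, but the mice differed among themselves by more than that, with mouse 1 highest in both classes. Restricted to low wells with at most 10% mitochondrial RNA (34, 7 and 35 wells), a choice made after the data were seen, the mean log2 difference of Malat1 was -0.12 against 0.68 ± 0.41 over all low wells. The same restriction left Kcnq1ot1 higher in each mouse, by 0.99, 5.33 and 5.13, and Neat1 at -0.12 in mouse 1 and 0.71 in mouse 2, with no value in mouse 3.

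Neat1, the paraspeckle scaffold, was lower in low wells. It had 0.121, 0.202 and 0.233 UMIs per 10,000 in low wells and 0.265, 0.365 and 0.471 in deeper wells. The mean log2 difference was -1.0 ± 0.14. Of all genes compared, 29.5% were lower in all 3 mice. Only 3, 5 and 9 UMIs stand behind the low values. Their exact 95% Poisson intervals, which cover counting error only, reached up to 0.353, 0.473 and 0.442. These intervals held the deeper value in mice 1 and 2 and not in mouse 3. With the mean over wells of the share, the log2 difference of Neat1 was -1.35, -0.11 and -0.23. Meg3 was at 0.161, 0.121 and 0.104 UMIs per 10,000 in low wells and 0.0704, 0.0537 and 0.0199 in deeper wells, with 4, 3 and 4 UMIs in low wells. The interval of the low value held the deeper value in mice 1 and 2 and not in mouse 3, where it began at 0.0282.

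So 4 of the 5 genes had a higher share in low wells in all 3 mice, and 23.6% of the 11262 genes compared did so. Kcnq1ot1 and Meg3 were at least 2-fold higher in every mouse, as were 1.9% of genes, and no member was 2-fold lower in every mouse, as 2.73% of genes were. Kcnq1ot1 was less than 2-fold higher in mouse 1 with the transcripts table (0.74 on the log2 scale). Since the genes were chosen on this contrast, no test was made of it and nothing is read from these counts. Ranked by the lowest of the 3 ratios, Kcnq1ot1 stood at place 131 and Vmn2r55 at place 496. Ranked by the mean they stood at places 20 and 9. The 10 genes that led by the lowest ratio, members left aside, were Zfp280c, Magee1, Naaa, Il18, Mid1, Mcts1, Sdk1, Snora30, Mtcp1 and Fundc1. Of these, 6 are X-linked, as were 76 of the 214 genes at least 2-fold higher and 359 of all genes compared. On the 2 plates of mouse 3 the log2 difference of Kcnq1ot1 was 3.23 (gate) and 4.40 (index) and that of Vmn2r55 was 3.79 and 4.92. Malat1 was at 1.24 and 1.17. Neat1 was lower in low wells of both plates, on 5 and 4 UMIs, and Meg3 higher, on 3 and 1. How many of all genes had the same sign on both plates was not counted.

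**Figure D1:**
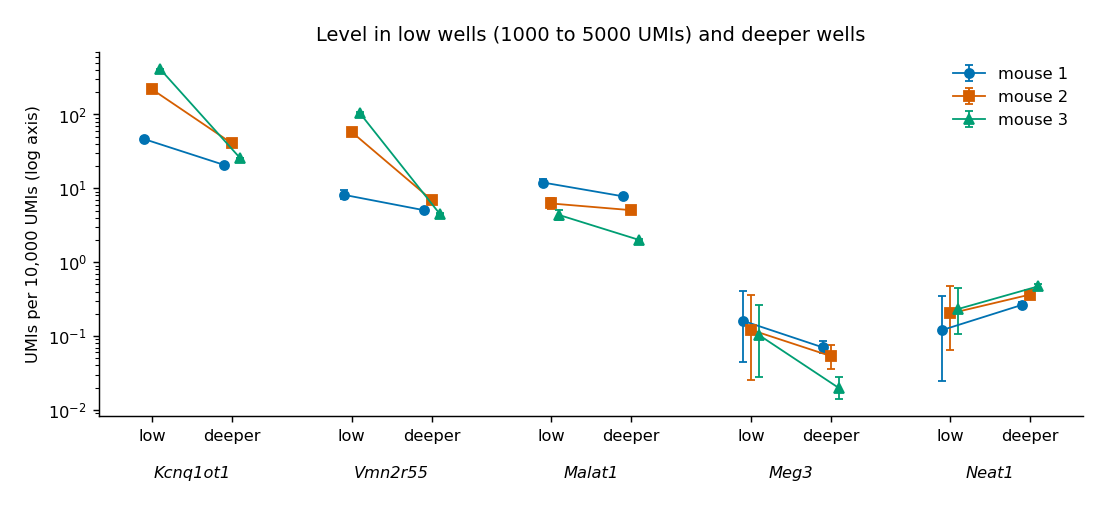
UMIs per 10,000 (log axis) of the 5 genes in low wells (1000 to 5000 UMIs) and deeper wells (over 5000 UMIs) of each mouse, summed over wells, with exact 95% Poisson intervals as bars. Kcnq1ot1 rises from 25.8 to 412 in mouse 3 and from 20.8 to 46.4 in mouse 1, while Neat1 is lower in the low wells of each mouse.

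On average, low wells of mice 2 and 3 held about as many UMIs of Kcnq1ot1 as deeper wells of up to 20000 UMIs, and those of mouse 1 held fewer. The average is raised by the wells richest in it. The median low well held 8, 32 and 37 UMIs in mice 1, 2 and 3, and the median deeper well 57, 69 and 63. The mean over mice was 51.9 ± 45.7 UMIs per well at totals of 1000 to 2000, 64.0 ± 47.1 at 2001 to 5000, 49.9 ± 22.0 at 5001 to 10000 and 58.3 ± 14.7 at 10001 to 20000 (SD, n = 3). It reached 91.5 ± 19.8 at 20001 to 50000 and 206 ± 48.4 above 50000. In mouse 1 the number went from 8.71 in the shallowest of these bins to 155 in the deepest, in mouse 2 from 47.3 to 251, and in mouse 3 from 99.8 to 212. At the boundary of the low wells, Kcnq1ot1 was at 41.3, 202 and 338 UMIs per 10,000 just below 5000 UMIs (2001 to 5000) and at 37.4, 68.3 and 101 just above it (5001 to 10000). The step across that boundary was thus small in mouse 1 and larger in mice 2 and 3.

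Vmn2r55 had the same course, with 13.3 ± 11.4 UMIs per well at totals of 1000 to 2000, 10.4 ± 5.9 at 5001 to 10000 and 40.4 ± 6.9 above 50000. Malat1 rose with depth in every step, from 1.26 ± 0.65 UMIs per well at 1000 to 2000 to 41.3 ± 24.1 above 50000. Neat1 rose from 0.0387 ± 0.0366 to 4.28 ± 1.81. Its share was 0.270 ± 0.259 per 10,000 in the shallowest bin, on few UMIs, and went from 0.171 ± 0.063 per 10,000 at 5001 to 10000 to 0.458 ± 0.129 above 50000. Meg3 was at 0.0299 ± 0.0371 UMIs per well in the shallowest bin and 0.266 ± 0.276 in the deepest.

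**Figure D2:**
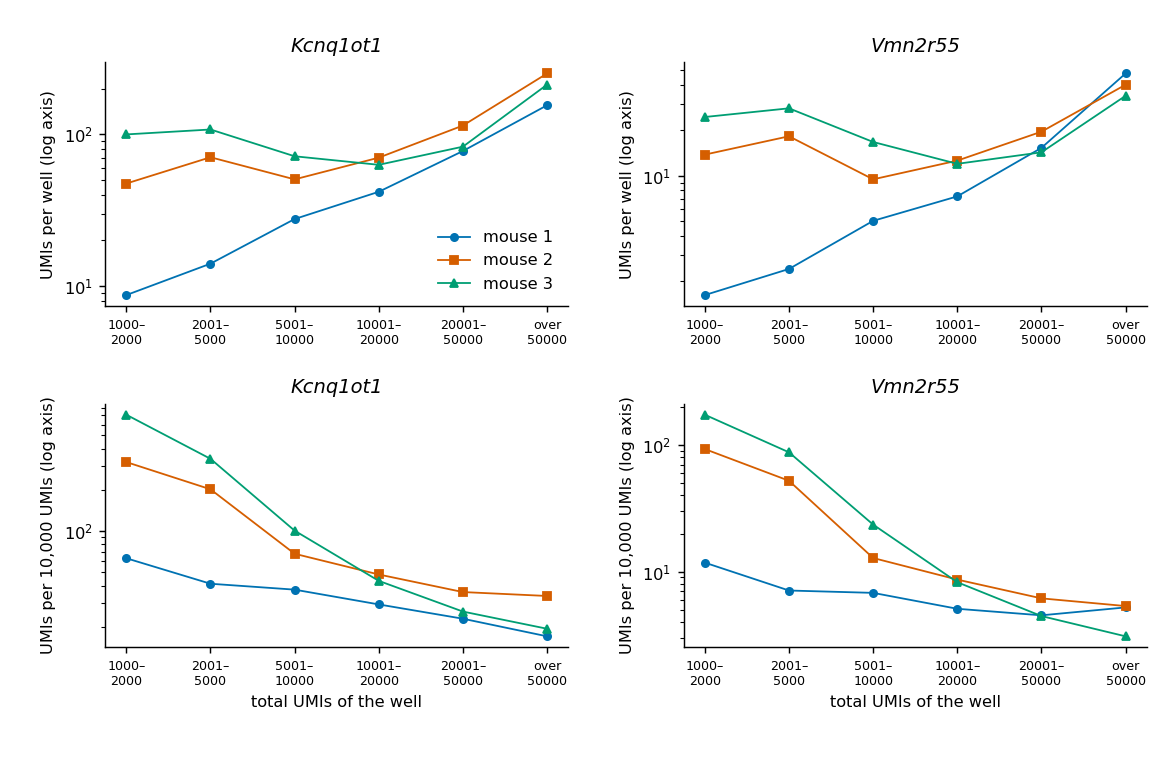
Kcnq1ot1 and Vmn2r55 by the total UMIs of the well, in bins from 1000 UMIs upward, for each mouse. The log axes give UMIs per well and UMIs per 10,000. UMIs of Kcnq1ot1 per well stay between 47.3 and 114 in mouse 2 from 1000 to 50000 UMIs, while its share falls from 319.6 to 35.9 per 10,000.

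Set against the spike-in RNA, the low wells did not hold more of most of these RNAs. Per 100 ERCC UMIs, Kcnq1ot1 in low wells was 0.175, 0.814 and 1.55 times its level in deeper wells of mice 1, 2 and 3. For Vmn2r55 the ratios were 0.126, 1.25 and 2.24. They were 0.120, 0.186 and 0.212 for Malat1, 0.0357, 0.0840 and 0.0482 for Neat1 and 0.179, 0.343 and 0.507 for Meg3. On this scale all 5 genes were lower in the low wells of mouse 1, and only Kcnq1ot1 and Vmn2r55 were higher in any mouse, both in mouse 3 and Vmn2r55 also in mouse 2. The plates of mouse 3 differed in this: Kcnq1ot1 was at 13.4 per 100 ERCC UMIs in low wells and 15.4 in deeper wells of the gate plate, and at 23.3 and 8.95 on the index plate.

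The share of Kcnq1ot1 varied widely among low wells. It was 0% to 3.87% of a low well's UMIs in mouse 1, with a median of 0.321%. In mouse 2 it was 0.201% to 22.4%, with a median of 0.944%, and in mouse 3 0% to 23.5%, with a median of 1.46%. Kcnq1ot1 exceeded 1% of UMIs in 11 of 98, 37 of 84 and 94 of 152 low wells, and in 1 of 447, 18 of 237 and 26 of 430 deeper wells. Vmn2r55 exceeded 1% in 0, 9 and 49 low wells and in 0, 0 and 7 deeper wells.

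In mice 2 and 3 the wells of a single cluster held most of it. Clustering on genes of the odd-numbered autosomes, with the 5 genes left out of it, gave a cluster of 60 wells (2, 7 and 51 in mice 1, 2 and 3), of which 56 were low wells. Those 56 wells, 16.8% of all 334 low wells, held 69.5% of the Kcnq1ot1 UMIs of low wells, at 1309 UMIs per 10,000, and had Vmn2r55 at 367. By mouse they were 2 of 98, 7 of 84 and 47 of 152 low wells, and held 8.51%, 53.8% and 79.2% of those UMIs. Of the 51 wells of mouse 3, 36 were on the index plate and 15 on the gate plate. Without the 60 wells, an alternative chosen after the data were seen, the log2 difference between low and deeper wells was 1.05, 1.41 and 2.24 for Kcnq1ot1 and 0.56, 1.62 and 2.40 for Vmn2r55. Both genes thus stayed higher in low wells in each mouse. The genes that led that cluster included A630089N07Rik, Gm17821 and Gm10785.

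Across low wells the shares of Kcnq1ot1 and Vmn2r55 moved together, with Pearson's r of 0.88, 0.97 and 0.95 over the 98, 84 and 152 wells of mice 1, 2 and 3. Across deeper wells r was 0.76, 0.85 and 0.98. With Malat1, Kcnq1ot1 had an r of 0.44, -0.17 and -0.06 across low wells. With the mitochondrial share of the well it had 0.23, -0.22 and -0.31 across low wells and 0.49, 0.45 and 0.22 across deeper wells. The wells of a mouse share their library and differ in depth, so these are descriptions.

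**Figure D3:**
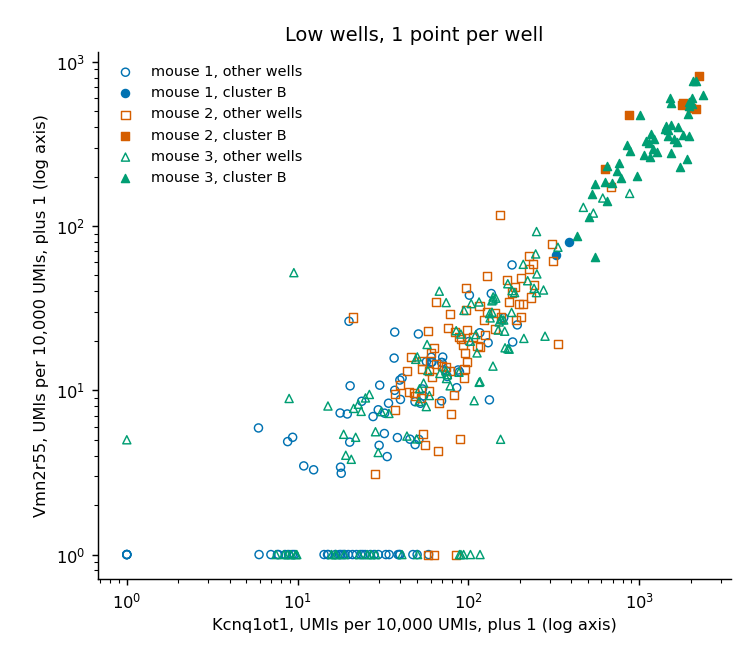
Each point is a low well, by mouse. The axes (log) are UMIs per 10000 plus 1 of Kcnq1ot1 and of Vmn2r55. Filled points are the 56 low wells of the cluster that held 69.5% of the Kcnq1ot1 UMIs of low wells, and 47 of them are in mouse 3.

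Low wells did not come evenly from the stages of germ cell development. Of the 334 low wells, 160 (47.9%) fell in the 12 stage clusters, 58 of them in stage 6, and 173 (51.8%) in 3 clusters made mostly of low wells. In the low wells that had a stage, Kcnq1ot1 was at 49.1, 102 and 106 UMIs per 10,000. Low wells were then set against deeper wells of the same clusters (64 of 98, 59 of 84 and 50 of 152 low wells). Their pooled share was divided by the mean share of those deeper wells, weighted by the low wells of each cluster. This pools clusters and does not give the direction within each. In stage 6 of mouse 1, Vmn2r55 was at 7.52 per 10,000 in low wells and 7.57 in deeper wells, and Kcnq1ot1 at 43.3 and 37.1. With clusters pooled, the log2 difference of Kcnq1ot1 was 0.62, 0.72 and 1.22. That of Vmn2r55 was 0.55, 0.82 and 1.23, that of Malat1 0.34, 0.26 and 0.65, and that of Neat1 -0.69, -0.44 and -1.93. Each of these genes kept its direction in each mouse. Meg3 did not: it was at 0.87 in mouse 1 and -0.14 in mouse 2, with no value in mouse 3.

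Among deeper wells, stages were compared over UMI sums per mouse and stage, fitted for all genes with the mouse as a block. The 12 stages are clusters ordered by pseudotime, the gradual change of expression from cell to cell. By markers, stages 2 to 4 are differentiating spermatogonia-like, stages 6 and 7 leptotene and zygotene-like and stages 10 to 12 pachytene-like. Stages 1, 5, 8 and 9 have no name from their markers. Stage 5 was led by Stra8 and Tex15, with Dmc1 and Prdm9 also among its leading genes, all known from the entry into meiosis. Stage 10 had sums from mice 1 and 3 only. All 5 genes differed among stages (edgeR quasi-likelihood F test, adjusted p from 8.43e-14 for Neat1 to 0.0115 for Meg3), as did 95.1% of the 11980 genes tested.

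Kcnq1ot1 was highest around the start of meiosis. In mice 1, 2 and 3 it had 41.4, 72.4 and 43.3 UMIs per 10,000 in stage 5, 37.1, 74.4 and 60.5 in stage 6 and 36.5, 67.9 and 41.0 in stage 7. In stage 1 it had 18.2, 31.6 and 20.2, and in stage 12 17.3, 34.1 and 18.1. Each mouse's values in stages 5, 6 and 7 lay above its values in stages 1 and 12. Against the mean of the other stages, Kcnq1ot1 rose by 0.76 ± 0.10 (SE) on the log2 scale in stage 5 (edgeR, adjusted p = 2.3e-08), by 0.67 ± 0.10 in stage 6 (8.56e-07) and by 0.67 ± 0.10 in stage 7 (5.5e-07), where 25.5%, 15.1% and 21.7% of genes were called higher. It was lower in stage 1 (-0.56 ± 0.11), stage 2 (-0.47 ± 0.11) and stage 10 (-1.02 ± 0.14, adjusted p = 6.65e-08), where 27.7%, 27.8% and 27.1% of genes were called lower.

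Stages 5, 6 and 7 were also the stages of lowest depth, with medians of 8746, 5265.5 and 8424 UMIs over all their wells. Stage 4, the next, had 13191 and stage 12 had 100924. With wells above 10000 UMIs alone, Kcnq1ot1 was 0.28 above the other stages in stage 6 (adjusted p = 0.144) and Vmn2r55 was 0.09 above them (adjusted p = 0.845), while the calls in stages 5 and 7 were kept for both genes. Per 100 ERCC UMIs the order of stages was another: Kcnq1ot1 was at 11.8 ± 4.0 in stage 6 and at 52.8 ± 27.5 in stage 12 (SD, n = 3). The total per ERCC UMI was 23.8 ± 16.3 in stage 6 and 255 ± 186 in stage 12.

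By mean level per 10,000, the stages of Kcnq1ot1 ran 6, 5, 7, 3, 8, 4, 11, 9, 2, 1, 12 and 10, from 57.3 ± 18.9 to 12.5 ± 1.4 (SD, n = 3 mice, and 2 in stage 10). Neighbours in that order differed beyond the spread of the mice between stages 5 and 7, between 7 and 3 and between 12 and 10. The other neighbours did not. Between stages 1 and 12 the levels per 10,000 overlapped, while the fitted difference was 0.35 ± 0.14 (adjusted p = 0.0237) with a median over all genes of -0.04. With median-ratio size factors the difference was 0.09 (adjusted p = 0.525) and the median -0.30, so this call rests on the scaling. It was also lost without mouse 2 (edgeR, adjusted p = 0.271) or mouse 3 (0.171). Over 15 alternatives the difference ran from 0.09 to 0.69, and the call was lost in 10. In mouse 1, 256 different UMIs were possible per gene and well. The mean well of that mouse held 63.9 UMIs of Kcnq1ot1 in stage 1 and 186 in stage 12.

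Vmn2r55 had the stage pattern of Kcnq1ot1. It had 7.57, 13.4 and 12.5 UMIs per 10,000 in stage 6 and 5.77, 5.51 and 3.24 in stage 12, and stage 6 was above stage 12 in each mouse. It rose by 0.66 ± 0.14 in stage 5, 0.78 ± 0.15 in stage 6 (edgeR, adjusted p = 7.15e-05) and 0.65 ± 0.14 in stage 7, and was lower in stage 2 (-0.62 ± 0.16) and stage 10 (-0.98 ± 0.20, adjusted p = 6.45e-05). It was also called lower in stage 1 (-0.52 ± 0.16, adjusted p = 0.00395), a call lost in 6 of 13 alternatives, among them median-ratio size factors (0.0604) and leaving out mouse 2 (0.0791). The call in stage 7 was lost without mouse 2 (0.49, adjusted p = 0.109). From stage 1 to stage 12 its fitted difference was 0.50 ± 0.20 (adjusted p = 0.0245), which became 0.24 (adjusted p = 0.306) with median-ratio size factors. That call was also lost without mouse 1 (adjusted p = 0.101) or mouse 2 (0.171).

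Neat1 had another course and was higher in stages 7 to 12 than in stages 2 to 4. Its highest stage was 12 in mouse 1, 7 in mouse 2 (0.639 UMIs per 10,000) and 11 in mouse 3, and neighbours in the order from stage 12 down to stage 10 did not differ beyond the spread of the mice. It had 0.0468, 0.0192 and 0.103 UMIs per 10,000 in stage 2, from 9, 1 and 16 UMIs, and 0.398, 0.508 and 0.617 in stage 12, from 141, 52 and 246. The stage 12 values lay above all stage 2 values. Against the mean of the other stages Neat1 was lower in stage 2 (-2.09 ± 0.28, edgeR adjusted p = 2.59e-08), stage 3 (-1.67 ± 0.33), stage 4 (-1.16 ± 0.30) and, barely, stage 5 (-0.82 ± 0.34, adjusted p = 0.0429), the last lost without any 1 of the mice. In stages 3, 4 and 5, 24.5%, 22.9% and 24.3% of genes were called lower. It was higher in each of stages 7 to 12, by 0.86 ± 0.24 in stage 7 up to 1.52 ± 0.16 in stage 12 (adjusted p = 4.96e-11). The shares of genes called higher in stages 8 to 12 were 25.4%, 35.1%, 29.2%, 33.7% and 38.1%. From stage 1 to stage 12 it rose by 1.73 ± 0.27 (adjusted p = 5.14e-07), and 36.6% of genes rose. The call in stage 4 was lost without mouse 3 (adjusted p = 0.0771) and that in stage 7 without mouse 2 (adjusted p = 0.0598).

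Malat1 differed between stages 7 and 2. It had 12.8, 6.04 and 3.75 UMIs per 10,000 in stage 7 and 6.25, 2.53 and 1.26 in stage 2. Stage 7 was above stage 2 in each mouse, although the mice differed as much from each other. Malat1 rose by 0.56 ± 0.17 in stage 7 (edgeR, adjusted p = 0.00682) and was lower in stage 2 (-0.84 ± 0.18) and stage 10 (-0.83 ± 0.22). Its stage 7 call was lost without mouse 3 (adjusted p = 0.0721). From stage 1 to stage 12 it differed by -0.09 ± 0.23 (adjusted p = 0.741), which misses the threshold.

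Meg3 was higher in stages 1 and 4, on few UMIs, and stages 5, 1 and 4 were its highest in mice 1, 2 and 3. It had 10, 8 and 6 UMIs in stage 1, or 0.136, 0.221 and 0.0621 per 10,000, and 23, 2 and 3 UMIs in stage 12, or 0.0649, 0.0195 and 0.00752. Each mouse was lower in stage 12. Meg3 rose by 1.47 ± 0.47 in stage 1 (edgeR, adjusted p = 0.00608) and by 1.35 ± 0.49 in stage 4 (adjusted p = 0.018), where 36.6% and 32.7% of genes were called higher, and fell from stage 1 to stage 12 by 1.83 ± 0.60 on the log2 scale (adjusted p = 0.00622), as 38.2% of genes fell. Without mouse 2 the stage 1, stage 4 and stage 12 calls were lost (adjusted p = 0.102, 0.109 and 0.0786), and without mouse 3 the stage 4 call was lost too (0.188). The difference among all stages was lost without mouse 2 (adjusted p = 0.244) or mouse 3 (0.0867).

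**Figure D4:**
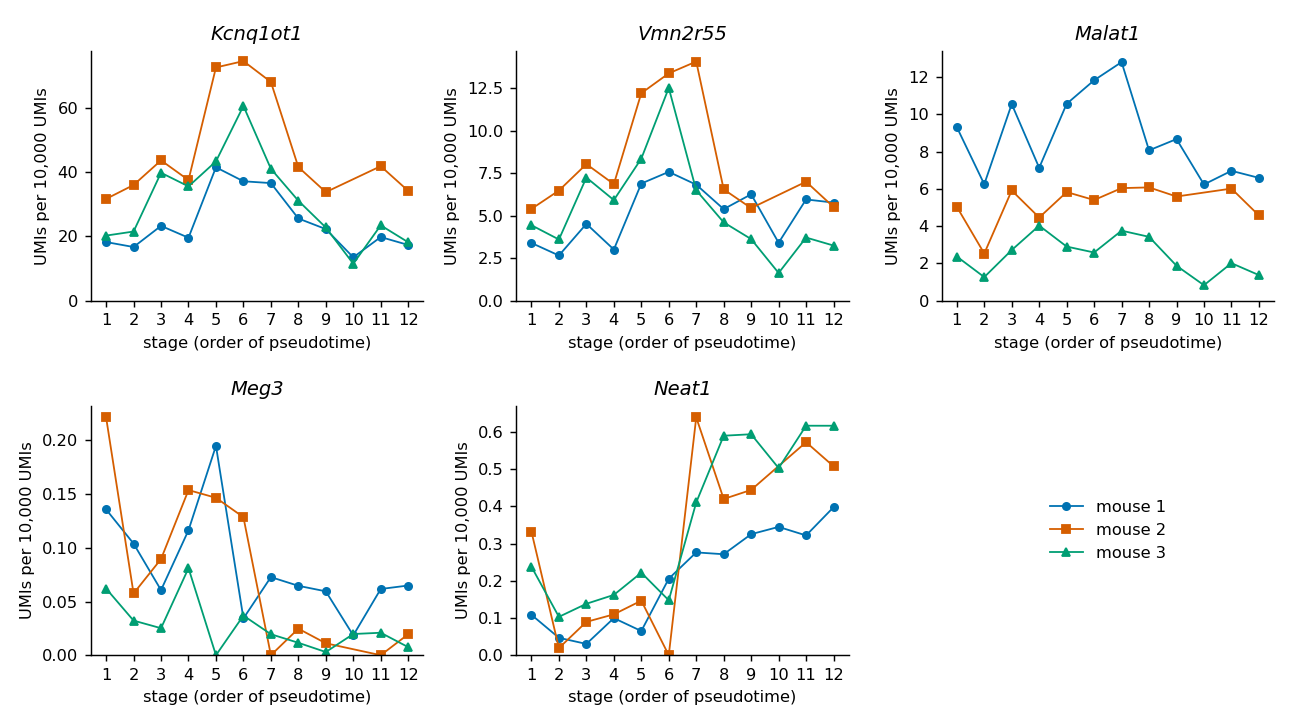
UMIs per 10,000 of the 5 genes in the deeper wells of each of 12 stages (x axis), a line per mouse. Kcnq1ot1 and Vmn2r55 peak in stages 5 to 7, Neat1 is at 0.398, 0.508 and 0.617 in stage 12 and, in mouse 2, higher in stage 7 (0.639), and stage 10 has no value for mouse 2.

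Depth was then compared within stages. The deeper wells of each mouse and stage were split at their median total, and the lower side was set against the upper side, with the mouse and stage together as the block. These wells are also the deeper side of the contrast that chose the genes, but the split within a stage was not used in choosing them. The median totals of mice 1, 2 and 3 were 13923.5, 9182 and 13352 UMIs on the lower side and 39094, 23364 and 36112 on the upper side.

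The share of Kcnq1ot1 was higher on the lower side. It had 24.1, 46.9 and 31.2 UMIs per 10,000 there and 19.2, 37.3 and 21.5 on the upper side, and was higher in 33 of the 36 combinations of mouse and stage. The fitted difference was 0.43 ± 0.06 (SE, edgeR, adjusted p = 5.37e-08), the smallest p of the 6468 genes tested. Vmn2r55 had 5.44, 8.27 and 5.83 per 10,000 on the lower side and 4.90, 6.32 and 3.45 on the upper side. It was higher in 28 of 36 combinations, by 0.45 ± 0.06 (adjusted p = 2.47e-07), the third smallest p. Only 0.85% of genes were called higher on the lower side and 0.325% lower, 55 against 21 genes, or 77 against 11 with median-ratio size factors.

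Per 100 ERCC UMIs the direction was the opposite in every mouse: Kcnq1ot1 was at 31.1, 17.7 and 10.5 on the lower side and 41.1, 22.3 and 13.2 on the upper side, and Vmn2r55 at 7.03, 3.13 and 1.95 against 10.5, 3.78 and 2.13.

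Malat1 did not pass this test. It had 7.75, 5.05 and 2.09 UMIs per 10,000 on the lower side and 7.81, 5.08 and 1.96 on the upper side, and the difference was 0.02 ± 0.05 (adjusted p = 0.903). Neat1 was 0.24 ± 0.11 below on the lower side (-0.24, adjusted p = 0.351), with 0.257, 0.344 and 0.380 against 0.269, 0.376 and 0.510. Meg3 had too few UMIs to be tested. The call of Kcnq1ot1 was lost with read counts in place of UMIs (0.33 ± 0.08, adjusted p = 0.125) and kept with the transcripts table (0.33 ± 0.05, adjusted p = 2.35e-05). That of Vmn2r55 was kept with both. Without mouse 3 the difference of Vmn2r55 was 0.29 (adjusted p = 0.0296), the lowest value with a mouse left out. The mitochondrial share of the sides was not compared.

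**Figure D5:**
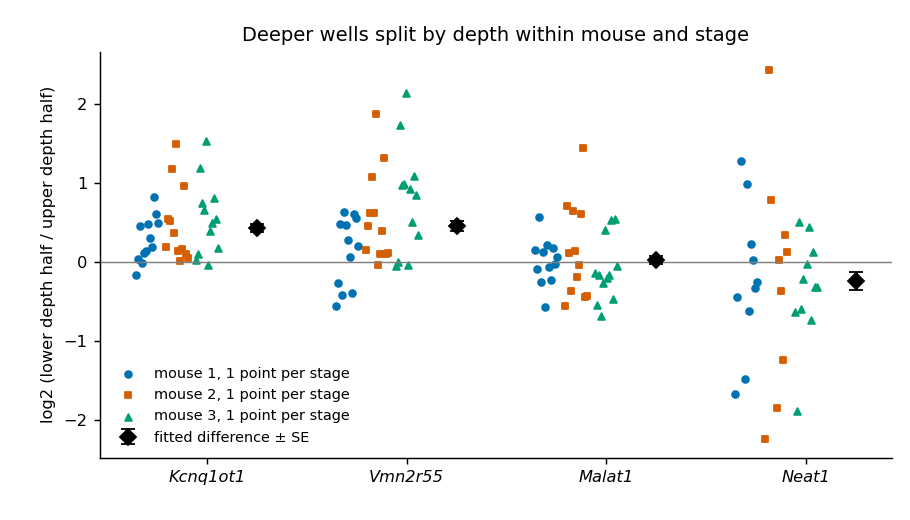
Log2 of the share on the lower side over that on the upper side of the median total, a point per mouse and stage, with the fitted difference ± SE, for Kcnq1ot1, Vmn2r55, Malat1 and Neat1 (points with no UMI on a side are not drawn). Kcnq1ot1 lies above 0 in 33 of 36 points, with a fitted 0.43, and Malat1 lies around 0.

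The genes most like Kcnq1ot1 and Vmn2r55 across stages were largely the same few. Likeness was the mean over mice of Pearson's r across the 11 stages with sums from all 3 mice, among 7987 genes, as a description of sums that share mice and depth. For Kcnq1ot1 they were Gm17821 (0.96), A630089N07Rik (0.94) and Ap1s2 (0.92), and for Vmn2r55 A630089N07Rik (0.97), Gm10785 (0.96) and Gm17821 (0.94). Kcnq1ot1 and Vmn2r55 themselves had 0.88. In GENCODE, Gm17821 is a processed pseudogene on chromosome 12, Gm10785 an antisense RNA on chromosome 16 and A630089N07Rik a protein-coding gene on chromosome 16.

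Of these, 3 also followed Kcnq1ot1 by depth. Gm17821 had 29.5, 129.5 and 253 UMIs per 10,000 in low wells and 14.4, 22.0 and 14.2 in deeper wells. A630089N07Rik had 21.8, 84.1 and 217 against 10.9, 13.8 and 11.6, and Gm10785 had 4.55, 12.4 and 19.6 against 3.31, 1.55 and 0.905. All 3 were also called higher on the lower side within stages, by 0.40 ± 0.06 for A630089N07Rik (edgeR, adjusted p = 2.33e-07), 0.40 ± 0.06 for Gm17821 (1.63e-06) and 0.36 ± 0.07 for Gm10785 (0.00122). Across low wells their r with Kcnq1ot1 was 0.78 to 0.99. Ap1s2, which encodes a subunit of a clathrin adaptor, was higher in low wells too, with 1.29, 1.13 and 0.595 against 0.167, 0.347 and 0.212, but its r with Kcnq1ot1 across low wells was 0.15, -0.12 and -0.13. The longest stretch in common was 63 bases between the transcripts of Kcnq1ot1 and A630089N07Rik and 30 between those of Vmn2r55 and A630089N07Rik, against 11 to 15 with Gm17821, Gm10785 and Ap1s2.

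Neat1 was most like Fam134a (0.92), Capn10 (0.91) and Pam16 (0.91), and had a mean r of -0.23 with Kcnq1ot1. Malat1 was most like Mllt4 (0.75), Jhdm1d (0.73) and Spdl1 (0.70). Meg3 was most like Eif6 (0.78), Clu (0.77) and Cd2bp2 (0.76).

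Genes for proteins of paraspeckles and speckles were followed from stage 1 to stage 12, over which 36.6% of all genes rose and 38.2% fell. Of 16 paraspeckle proteins, 9 rose and 3 fell from stage 1 to stage 12 (edgeR), with a median of 0.51 against -0.04 over all genes. The RNA-binding proteins Hnrnph3 (2.50 ± 0.22) and Dazap1 (2.01 ± 0.19) rose, Rbm3 fell (-4.87 ± 0.25), and Nono, a core protein of paraspeckles that is X-linked in the mouse, fell by 5.84 ± 0.36 on the log2 scale. Sfpq, its partner, fell by 0.60 ± 0.13. Of 12 nuclear speckle proteins 5 rose and 0 fell, with a median of 0.26. They were the kinase Clk4 (1.52 ± 0.26), Acin1 (0.83 ± 0.14) and the splicing factors Srsf7 (0.60 ± 0.15), Srsf5 (0.60 ± 0.13) and Srrm1 (0.29 ± 0.13). In low against deeper wells 0 of 16 and 0 of 12 differed 2-fold in every mouse, beside 1.9% of all genes higher and 2.73% lower. By depth within stages 0 and 0 were called, beside 0.85% of all genes higher and 0.325% lower.

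Of 16 other nuclear or imprinted noncoding RNAs tested, 5 rose and 8 fell from stage 1 to stage 12, with a median of -0.45, beside the 36.6% and 38.2% of all genes. Mirg (4.81 ± 0.82) rose, and H19 (-5.21 ± 0.39), Snhg11 (-3.23 ± 0.46) and Xist (-2.45 ± 0.88), the RNA of X inactivation, fell. In low against deeper wells, 0 of 17 were at least 2-fold higher in every mouse and 0 were lower, beside 1.9% and 2.73% of all genes. Their median was 0.37 against -0.07 over all genes.

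From stage 1 to stage 12, where 38.2% of all genes fell, the neighbours of the 2 imprinted RNAs differed. Of 6 genes of the Kcnq1 region tested, 4 fell, namely Phlda2 (-6.00 ± 0.85), Ascl2 (-4.55 ± 0.59), Cd81 (-4.51 ± 0.40) and the cell cycle inhibitor Cdkn1c (-3.97 ± 0.41), and Tssc4 rose (0.59 ± 0.20). Of 5 genes of the Dlk1-Dio3 region, Mirg rose, Dlk1 (-4.69 ± 0.38) and Begain (-1.04 ± 0.35) fell, and the other two did not pass the test.

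Few other vomeronasal receptor genes were measured. Of 133 vomeronasal receptor rows, 5 had enough UMIs for the comparison of low and deeper wells, 0 of them 2-fold higher in every mouse. Along the stages Vmn2r29 (3.70 ± 0.79), Vmn1r181 (3.20 ± 0.63) and Vmn1r65 (0.86 ± 0.29) rose and Vmn2r-ps129 fell (-2.18 ± 0.33). Of 78 cytoplasmic ribosomal protein genes, which encode abundant cytoplasmic messenger RNAs, only Rpl39 was at least 2-fold higher in low wells of every mouse. Of all genes compared, 1.9% were so. By depth within stages, 16 of 75 ribosomal protein genes were called higher on the lower side, beside 0.85% of all genes tested. Of 10 immediate early and stress genes, 0 differed 2-fold between low and deeper wells in every mouse. From stage 1 to stage 12, 3 of 13 of these rose and 10 fell, and of 81 ribosomal protein genes 4 rose and 64 fell, beside 36.6% and 38.2% of all genes.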

How the data were processed

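The authors deposited, per the file headers, a table of UMI counts, a table of read counts and a table of transcripts (estimated counts) per gene and well. The submitters' processing notes name BWA 0.7.10 and mm10, and the rest of the upstream processing is not given in the sources used here. The transcripts table lacks 811 of the 20389 rows. The columns of mouse 1 do not separate its libraries and stand in another order in that table, and its wells were matched by profile (lowest r 0.989). Estimated counts were rounded to whole numbers.

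UMI counts were read with Python 3.11.15 and pandas 2.3.3. Totals per well left out ERCC, mitochondrial genes, the eGFP row and Rn45s, and ranged from 5866174 to 18032562 UMIs per mouse. The 1448 wells with at least 1000 UMIs were aligned with Seurat 5.3.0 and clustered with scanpy 1.11.5 (1500 variable genes of odd-numbered autosomes, without the 5 genes and the listed genes, resolution 1). Clusters led by markers of another class stayed unnamed, a rule added after the clusters were seen. As 1 cell was sorted per well, no doublet caller was run.

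UMIs of deeper wells were summed per mouse and stage (at least 5 wells, 35 sums) or per side of the median total (at least 4 wells), and tested with edgeR 4.0.16 (quasi-likelihood, TMM, filterByExpr, Benjamini-Hochberg over all genes, threshold 0.05) in R 4.3.3. DESeq2 1.42.0 was an alternative. The block was the mouse, as stages of a mouse come from the same animal. Genes compared between low and deeper wells had at least 20 UMIs in every mouse. Likeness used log2(CPM + 10) among genes with a mean of at least 20 CPM. On simulated data, stage 12 against stage 1 (11980 genes) recovered 53% of 2-fold and 89% of 4-fold changes with 7 unchanged genes called, and the split by depth (6468 genes) 100% and 100% with 11.

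The 5 genes and all lists were chosen with earlier results of these data known. Named were the 5 genes, the 3 most alike for each, the 10 leading other genes in low wells and up to 4 called genes per list by size of change. Sfpq, Srrm1, Tssc4, Rpl39 and the cluster of 60 wells were singled out after their values were seen. Positions and sequences are from GENCODE M21, GRCm38.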

Additional observations from a re-analysis of the deposited data

Results flagged for a closer look

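The wells with fewer than 1000 UMIs, which enter no comparison, also held UMIs of 3 of the genes above the 3 counts that a count of 0 allows. Kcnq1ot1 had 454, 918 and 1700 UMIs there in mice 1, 2 and 3. Vmn2r55 had 85, 153 and 346, and Malat1 had 52, 14 and 14. Per 10,000 UMIs of those wells Kcnq1ot1 was at 51.0, 293 and 288, and their ERCC share was 30.7% to 32.4%. Their median ERCC count was 214, 305 and 9 UMIs per well in mice 1, 2 and 3.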

How the results depend on the processing

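The direction of Kcnq1ot1 and Vmn2r55 in stages 5, 6 and 7, and by depth within stages, was kept in all alternatives run. Over settings tried for single genes, 545 values were kept, 66 lost the call without reversing, 7 reversed and 7 moved by more than the spread of the mice. In the tests, kept means the same call and, save for differences among all stages, the same direction. Low against deeper wells had no call, and there kept means a mean moved by less than the spread of the mice. By that rule Vmn2r55 was kept at mean log2 differences from 0.86 to 4.17. The count of genes at least 2-fold higher in low wells, 214, was 332 with at least 10 UMIs and 126 with at least 50. With no replicate block for the mouse, 3 of the 5 genes differed among stages, 1 instead of 4 between stages 1 and 12, 17 instead of 27 calls were made over all stages, and 1 instead of 2 genes by depth. Between stages 1 and 12 the 4 called genes became 2 with median-ratio factors, with DESeq2, above 3000 UMIs, above 10000 UMIs, with reads, at resolution 1.5 and without the index plate of mouse 3, and 1 without its gate plate. With reads, 1 gene was called by depth. With a mouse left out, the counts were 4 to 4 of 5 across stages, 1 to 3 between stages 1 and 12 (2 without mouse 1, 1 without mouse 2), 21 to 25 over single stages and 2 to 2 by depth.

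Judged on the mean over mice or the fitted difference, the 7 reversals were all of Malat1. They came in low wells with at most 10% mitochondrial RNA (-0.12), between stages 1 and 12 without mouse 1 (0.027, range with a mouse left out -0.31 to 0.027) and at resolution 0.6 (0.11). By depth they came with no filter (-0.029), without mouse 1 (-0.017, range -0.017 to 0.039), with reads (-0.12) and with transcripts (-0.028). In single mice the sign of low against deeper wells also changed for other genes. Neat1 turned to 0.71 in mouse 2 in low wells with at most 10% mitochondrial RNA, with no value in mouse 3. It was at 0.19 in mouse 2 with 1000 to 3000 UMIs against over 3000. Meg3 was at -0.42 in mouse 1 with 2000 to 5000 UMIs and at -0.14 in mouse 2 against deeper wells of the same clusters. The cause was not tested. Of all genes, 76 were called by depth, and 4 with no block or with reads up to 120 with DESeq2. Medians over wells gave no value for Neat1 and Meg3, and the split by depth was not run at other resolutions. For Neat1 and Meg3, depth limits the low wells to 3 to 9 UMIs per mouse.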
